A study of Mus musculus with 6 samples.

Results

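Evx2 and the 9 genes of the neighbouring Hoxd cluster (Hoxd13, Hoxd12, Hoxd11, Hoxd10, Hoxd9, Hoxd8, Hoxd4, Hoxd3 and Hoxd1) were examined, 10 of the 41388 genes listed in the count files. Evx2 was chosen by its higher level in Postn-/- chondrocytes in these same samples, so its values are given as a description without a test. The Hoxd genes were taken because they lie beside it on chromosome 2, whatever their own values, and were used to see whether the neighbours of Evx2 changed as well. Postn encodes periostin, a matricellular protein of connective tissues, and the series asked which genes differ in joint chondrocytes that lack it.

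RNA was sequenced from primary chondrocytes that came from the cartilage of femoral heads of male mice, aged 21 days, and that were kept in culture for 2 days without further treatment. The Postn-/- group (n = 3) was homozygous for the germline allele Postn tm1Jmol, and the wt group (n = 3) was B6129SF2/J, the background of the mutants, given in the sample labels as B6/129 for both genotypes. The paper states that the mutants were bred from heterozygous parents and that its experiments used littermates. The mutation is present in every cell of the animal, so the groups differ in the genotype of the mouse and not only of the cultured chondrocyte.

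Evx2 encodes an even-skipped-type homeodomain transcription factor and lies at the end of the HoxD cluster next to Hoxd13, transcribed away from it. Genes of a Hox cluster are known to be switched on in the order in which they lie along the chromosome, with the Hoxd8 to Hoxd11 genes active in the early and proximal limb and the Hoxd13 end, together with Evx2, in the digit region. In embryos, Evx2 and the last Hoxd genes answer to shared enhancers outside the cluster, Polycomb proteins keep silent Hox genes off, and CTCF and cohesin shape the chromatin contacts on both sides of the cluster.

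Coordinates are given as in the deposited files, which for these 10 genes equal those of mouse GRCm38 in GENCODE M21. Evx2 (ENSMUSG00000001815) spans chr2:74652991-74659557 on the minus strand, with 4191 exonic bases. The Hoxd genes all lie on the plus strand, and their starts are 8.75 kb (Hoxd13), 15.5 kb (Hoxd12), 20 kb (Hoxd11), 32.4 kb (Hoxd10), 38.2 kb (Hoxd9), 45.1 kb (Hoxd8), 52.4 kb (Hoxd4 and Hoxd3) and 103 kb (Hoxd1) from the start of Evx2. Evx2 and Hoxd13 thus point away from each other.

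To show the sequence in front of the gene that moved, of its nearest neighbour and of the Hoxd gene with the highest level, the 250 bases before the RefSeq start of Evx2 (chr2:74659558-74659807, minus strand), Hoxd13 (chr2:74667975-74668224, plus strand) and Hoxd8 (chr2:74704365-74704614, plus strand) are printed from RefSeq, GRCm38.p6, 5′ to 3′ in the direction of transcription. Capitals mark every match on either strand to the TATA box core TATAAA, the CAAT box core CCAAT, the GC box core GGGCGG and the homeodomain core TAATTA, so a match on the other strand reads as its reverse complement.
Evx2: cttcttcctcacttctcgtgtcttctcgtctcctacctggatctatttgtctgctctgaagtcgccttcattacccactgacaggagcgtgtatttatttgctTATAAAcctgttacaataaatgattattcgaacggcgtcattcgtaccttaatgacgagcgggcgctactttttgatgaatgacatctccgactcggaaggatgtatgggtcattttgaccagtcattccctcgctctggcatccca
Hoxd13: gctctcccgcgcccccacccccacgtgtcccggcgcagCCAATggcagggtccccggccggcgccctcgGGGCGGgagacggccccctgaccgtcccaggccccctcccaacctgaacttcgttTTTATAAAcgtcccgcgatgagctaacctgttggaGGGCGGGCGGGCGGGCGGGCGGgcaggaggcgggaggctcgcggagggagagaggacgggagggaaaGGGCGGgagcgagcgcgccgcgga
Hoxd8: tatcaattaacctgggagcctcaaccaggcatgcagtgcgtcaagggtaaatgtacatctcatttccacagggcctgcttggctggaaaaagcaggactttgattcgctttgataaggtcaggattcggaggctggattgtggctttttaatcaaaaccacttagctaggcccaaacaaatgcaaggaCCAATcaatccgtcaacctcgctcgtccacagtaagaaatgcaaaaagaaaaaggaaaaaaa
The Evx2 window held 1 TATAAA match, and none of the other 3 motifs. The Hoxd13 window held 2 overlapping TATAAA matches, 1 on each strand, 1 CCAAT and 7 GGGCGG, of which 5 overlap in 1 run, and the Hoxd8 window held a single CCAAT. Over 32851 RefSeq windows of the same length, 12.4% held TATAAA, 33.8% CCAAT, 32.7% GGGCGG and 4.84% TAATTA. CG dinucleotides numbered 14 in the Evx2 window, 31 in the Hoxd13 window and 6 in the Hoxd8 window, beside a median of 6 over all windows. The RefSeq start of Hoxd13 differs from the start in the count files, which is at base 74668310.

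Between 20587640 and 26572260 reads were counted in genes per sample, so 3 reads, taken here as the limit of detection of a library, correspond to 0.113 to 0.146 CPM (counts scaled to a library total of 1e6 reads). Postn was lower in every Postn-/- sample (4.27 to 5.67 CPM) than in every wt sample (6.90 to 10.3 CPM). Its log2 fold change was -0.91 ± 0.22 (SE), with an unadjusted p of 0.0036 by edgeR's quasi-likelihood F-test and an adjusted p of 0.717. At the protein level, the paper reports no periostin staining in Postn-/- knee joints and negligible periostin in serum. Reads of the gene were still counted in the mutant samples. Counts per gene do not show from which exons these reads came. All 15 chondrocyte markers, such as Col2a1 and Acan, were detected above the filter, with summed levels of 34006 to 45188 CPM in Postn-/- and 26062 to 40025 CPM in wt. The summed levels of the markers of fibroblasts, osteoblasts, osteoclasts, leukocytes, red cells, endothelium, muscle and neurons also overlapped between the genotypes. Of these lists, only the red cell list held a marker at 0 reads in all 6 samples (Hba-a2). Single chondrocyte markers did separate, with Col2a1, Col9a3 and Chad higher in Postn-/- without overlap, 3 of 15 beside 13.6% of all tested genes. The fibroblast marker Thy1, below the filter, was also higher without overlap, with 36 reads in Postn-/- and 20 in wt. Within the lists, the muscle marker Acta1 was lower in Postn-/- without overlap (edgeR log2 fold change -1.30 ± 0.42, SE; unadjusted p of 0.0152; adjusted p of 0.717). The other muscle markers did not fall with it. Myh4 had a log2 fold change of 0.0007, and Ckm and Myod1, below the filter, had 9 and 8 reads in Postn-/- and 6 and 4 in wt. The 4 tested leukocyte markers (median 0.47) and the 3 tested endothelium markers (median 0.19) had values above 0, as had 7376 of all 14533 tested genes. In both lists 0 were past an unadjusted p of 0.05, beside 6.3% of all tested genes.

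Evx2 was higher in Postn-/- chondrocytes and low in wt, where each sample still had more than 3 reads. It was counted with 88, 99 and 96 reads in Postn-/- replicates 1, 2 and 3 and with 4, 14 and 11 reads in wt replicates 1, 2 and 3. Scaled by library size with TMM factors, these are 3.54, 4.03 and 4.57 CPM in Postn-/- and 0.154, 0.633 and 0.527 CPM in wt. The 3 Postn-/- samples lay close together and the lowest of them was above the highest wt sample. The means were 4.05 ± 0.520 CPM and 0.438 ± 0.252 CPM (SD, n = 3 each), a 9.24-fold ratio of the means. The fitted log2 fold change was 3.22 ± 0.42 (SE) and ranked 2nd of 14533 tested genes from the highest rise downwards. In the same fit, 0.0138% of the tested genes, 2 in number, had an adjusted p of at most 0.05, and in 13.6% of the tested genes the samples of the genotypes did not overlap. These values chose Evx2, and nothing is read from them about the gene. Evx2 passed the filter of more than 1 CPM in at least 2 samples only through its 3 Postn-/- samples. In whole-culture RNA, more cells with Evx2 transcripts and more Evx2 RNA per cell cannot be told apart. Of the 15 chondrocyte markers, 10 had fitted values above 0 and 5 below (Col11a1, Matn1, Hapln1, Sox5 and Sox6), 4 (Col2a1, Col9a3, Col11a2 and Chad) were higher in Postn-/- at an unadjusted p of at most 0.05, beside 6.3% of all tested genes in either direction, and 0 passed after adjustment. Neuron markers, of interest because Evx2 is active in the embryonic spinal cord, had none of 4 tested genes past that p and summed to 16.3 to 20.1 CPM in Postn-/- and 15.0 to 20.6 CPM in wt. Their part in the Evx2 difference was not tested.

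**Figure D1:**
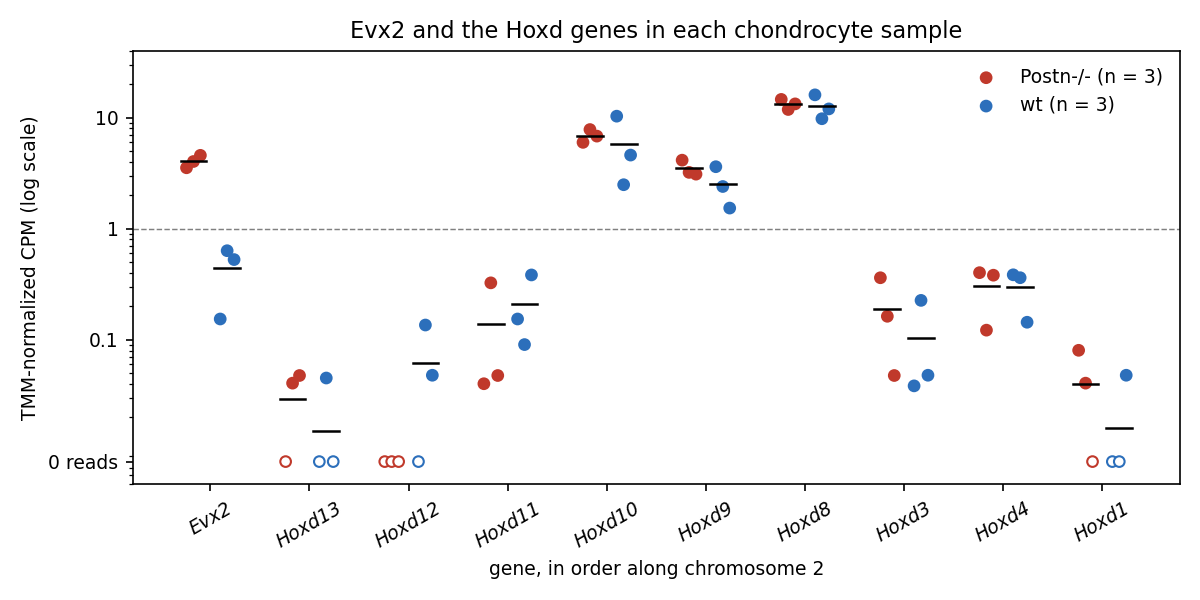
TMM-normalized CPM (log scale) of Evx2 and the 9 Hoxd genes in order along chromosome 2, with 1 point per sample, a bar at the mean of each genotype (n = 3) and open points for samples without a read; the dashed line is 1 CPM. The Evx2 points of Postn-/- (3.54 to 4.57 CPM) lie above those of wt (0.154 to 0.633 CPM), whereas the points of Hoxd8, Hoxd9 and Hoxd10 overlap.

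**Figure D2:**
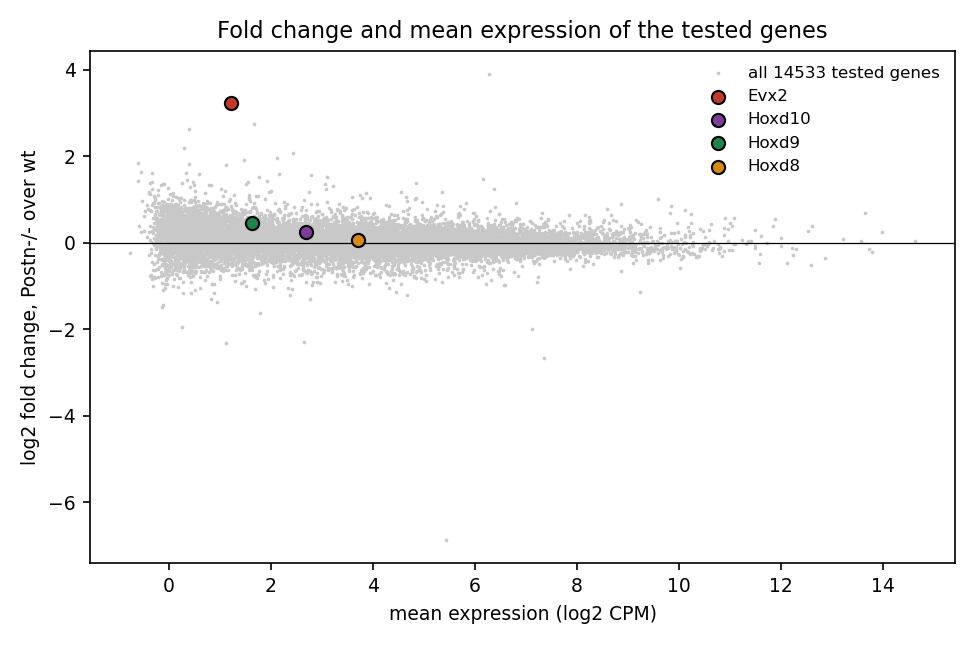
Log2 fold change, Postn-/- over wt, against mean expression (log2 CPM) for each tested gene in grey, with Evx2 and the 3 tested Hoxd genes marked in colour. Evx2 lies at 3.22, above all tested genes but 1, while Hoxd8, Hoxd9 and Hoxd10 lie within the grey band between 0.07 and 0.46.

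None of the Hoxd genes passed the threshold. Of the 9, 3 (Hoxd8, Hoxd9 and Hoxd10) were above the filter on low counts, and by edgeR's quasi-likelihood F-test 0 of these 3 reached a Benjamini-Hochberg adjusted p of 0.05 or less, 0 had an unadjusted p of at most 0.05, and in 0 did the genotypes separate without overlap. Over all tested genes, the corresponding shares were 0.0138%, 6.3% and 13.6%. DESeq2 and voom, run on the same counts, also gave 0 adjusted calls. Of all 14533 tested genes, these fits called only 11 (DESeq2), 1 (voom without surrogate variables) and 4 (voom with them). At an unadjusted p of at most 0.05, voom gave 1 of the 3 in each form, Hoxd9 without surrogate variables (log2 fold change 0.78, p of 0.0326; 9.2% of all tested genes past that p) and Hoxd10 with them (0.62, p of 0.0101; 13.7% of all tested genes). The median log2 fold change of the 3 Hoxd genes was 0.24 by edgeR, 0.57 by voom without surrogate variables and 0.54 with them, beside medians of all tested genes of 0.0042, 0.0046 and 0.0080. By edgeR, this median ran from -0.08 (without wt replicate 2) to 0.82 (without wt replicate 1) when samples were left out in turn, and was 0.09 without wt replicate 3 and 0.14 without Postn-/- replicate 2.

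Hoxd8, a central gene of the cluster that is active early in the limb bud, was the highest of the family. Its levels were 14.6, 11.8 and 13.3 CPM in Postn-/- and 16.0, 9.77 and 12.0 CPM in wt, so the mutant samples lay inside the range of the wt samples. The means of 13.2 ± 1.38 and 12.6 ± 3.18 CPM (SD, n = 3 each) gave a log2 fold change of 0.07 ± 0.20 (SE; 95% interval -0.40 to 0.54), with an adjusted p of 0.939.

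Hoxd10, which helps pattern the hindlimb skeleton and its motor neurons, had the widest spread of the 3 tested Hoxd genes. Its values were 5.99, 7.81 and 6.82 CPM in Postn-/- but 10.3, 2.49 and 4.60 CPM in wt. The wt samples fell on both sides of the mutant samples, with wt replicate 1 the highest and wt replicate 2 the lowest of all 6, 4.14-fold apart. The log2 fold change was 0.24 ± 0.45 (SE; 95% interval -0.81 to 1.28), with an adjusted p of 0.899.

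Hoxd9, which acts with its paralogs on the upper limb segments, had 4.14, 3.21 and 3.10 CPM in the Postn-/- samples and 3.61, 2.40 and 1.53 CPM in the wt samples. The genotypes overlapped through wt replicate 1, which was higher than Postn-/- replicates 2 and 3. The means were 3.48 ± 0.571 and 2.52 ± 1.05 CPM (SD, n = 3 each), with a log2 fold change of 0.46 ± 0.33 (SE; 95% interval -0.29 to 1.22) and an adjusted p of 0.740. The intervals of Hoxd9 and Hoxd10 include changes of more than 1 log2 unit upwards, and the tests that missed the threshold do not show equal levels.

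The values of Hoxd10 and Hoxd9 moved when wt replicate 1 was left out. This sample had the highest Hoxd8 and Hoxd10 levels of all samples, the lowest Evx2 level and the lowest chondrocyte marker sum (26062 CPM). It also had the lowest sums of osteoblast (294 CPM), endothelium (4.23 CPM) and neuron markers (15.0 CPM). In its absence, the log2 fold change was 0.96 for Hoxd10 (unadjusted p of 0.0159), 0.82 for Hoxd9 (unadjusted p of 0.0285) and 0.28 for Hoxd8 (unadjusted p of 0.150), and the adjusted p was 0.833, 0.833 and 0.846. In that fit, 5.44% of all tested genes had an unadjusted p of at most 0.05. Hoxd9 was at 0.21 without wt replicate 3 and at 0.32 without Postn-/- replicate 1. Without wt replicate 2 instead, the value for Hoxd10 was -0.12 and that for Hoxd8 was -0.08. That sample had the highest sums of osteoblast (1099 CPM), fibroblast (5379 CPM) and muscle markers (17.8 CPM). Its sums of osteoclast (314 CPM) and leukocyte markers (19.0 CPM) were the lowest. The part of the marker levels of wt replicates 1 and 2 in the Hoxd values was not tested.

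The tested Hoxd genes were more spread among the wt samples than among the Postn-/- samples, as were 58.3% of all tested genes by coefficient of variation (medians of 15.5% in wt and 13.1% in Postn-/-). The coefficient of variation of Hoxd10 was 69.7% in wt and 13.3% in Postn-/-, that of Hoxd9 was 41.6% and 16.4%, and that of Hoxd8 was 25.2% and 10.4%. With 3 samples per genotype, the difference in spread was not tested.

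The other 6 Hoxd genes had few reads and were below the filter. Together they had 22, 17 and 11 reads in the Postn-/- samples and 15, 19 and 14 reads in the wt samples. Hoxd13, the gene nearest to Evx2 and the main regulator of digit formation, had 0, 1 and 1 reads in Postn-/- and 0, 1 and 0 reads in wt. Thus its group totals of 2 and 1 reads were below the 3 reads taken as the limit, which over a whole group amount to 0.0424 CPM in Postn-/- and 0.0431 CPM in wt. Hoxd12, a weaker digit gene next in the row, had no read in Postn-/- and 0, 3 and 1 reads in wt. Hoxd11, which acts with Hoxa11 in the forearm and lower leg, had 1, 8 and 1 reads in Postn-/- and 4, 2 and 8 reads in wt.

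On the far side of the cluster, Hoxd4, which patterns the hindbrain and neck vertebrae, had 10, 3 and 8 reads in Postn-/- and 10, 8 and 3 in wt. Hoxd3, another gene of the neck vertebrae, had 9, 4 and 1 reads in Postn-/- and 1, 5 and 1 in wt, and Hoxd1, which acts in sensory neurons, had 2, 1 and 0 reads in Postn-/- and 0, 0 and 1 in wt. The samples of the genotypes overlapped in each of these 6 genes. When all 34295 genes with a read were fitted without a filter, the smallest unadjusted p among these 6 genes was 0.0764 (Hoxd12, adjusted p of 0.833), and the fitted fold changes of such low counts depend on the prior count. Hoxd3 and Hoxd4 overlap each other and the gene model Gm28230, and 60.3% and 46.8% of their 50-base words also occur in other genes. The paper states that only unambiguous reads with a unique alignment were counted, so reads may have been lost there. The counts of Hoxd3 and Hoxd4 may thus be too low. For Evx2, Hoxd13, Hoxd12, Hoxd9, Hoxd8 and Hoxd1 the share of such words was 0%, for Hoxd10 3.17% and for Hoxd11 10.04%.

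Set per kilobase of exon (RPKM, here normalized CPM divided by exon length in kilobases), the order of mean levels over the 6 samples was Hoxd8 (4.71), Hoxd10 (3.49), Hoxd9 (1.404), Evx2 (0.535), Hoxd4 (0.101), Hoxd11 (0.0412), Hoxd3 (0.0352), Hoxd1 (0.0151), Hoxd12 (0.0121) and Hoxd13 (0.00897). The ranges over the samples overlapped between Hoxd8 (3.56 to 5.84 RPKM) and Hoxd10 (1.37 to 5.67 RPKM), and between Hoxd10 and Hoxd9 (0.718 to 1.94 RPKM), yet within each sample Hoxd8 was above Hoxd10, and Hoxd10 above Hoxd9, in 6 of 6. Evx2 in Postn-/- was at 0.844, 0.961 and 1.09 RPKM and above Hoxd4 in 3 of 3 samples. In wt it was at 0.0367, 0.151 and 0.126 RPKM and above Hoxd4 in 2 of 3. Hoxd9 remained above Evx2 in 6 of 6 samples. From Hoxd4 downwards the values rest on so few reads that the order is not resolved, and Hoxd4 exceeded Hoxd11 in 4 of 6 samples and Hoxd11 exceeded Hoxd3 in 3 of 6.

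The summed level of the 9 Hoxd genes was 25.6, 23.5 and 23.7 CPM in Postn-/- and 30.5, 15.5 and 18.8 CPM in wt, and Hoxd8, Hoxd9 and Hoxd10 gave 94.5% to 98.1% of it. The sums of the mutant samples lay within the range of the wt samples. Evx2 amounted to 13.8%, 17.1% and 19.3% of the Hoxd sum in Postn-/- and to 0.504%, 4.08% and 2.81% of it in wt. The ratio of Hoxd10 to Hoxd8 ran from 0.410 to 0.660 in Postn-/- and from 0.255 to 0.643 in wt, and that of Hoxd9 to Hoxd8 from 0.233 to 0.284 and from 0.128 to 0.245, so both ratios overlapped between the genotypes. These shares and ratios are of CPM and not per length, and serve to compare samples only.

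Outside the 10 genes, 39 annotated genes start within 1 Mb of the start of Evx2, and 9 of them were above the filter. Together with Hoxd8, Hoxd9 and Hoxd10, these 12 tested neighbours had log2 fold changes from -0.20 to 0.46 with a median of 0.02. By edgeR's quasi-likelihood F-test, 0 of 12 reached an adjusted p of 0.05 or less, 0 of 12 had an unadjusted p of at most 0.05 (smallest 0.108, Lnpk), and 0 of 12 had genotypes that did not overlap. DESeq2 and voom, with and without surrogate variables, also gave 0 adjusted calls among the neighbours they tested. Of all 14533 tested genes, these fits called only 11 (DESeq2), 4 (voom with surrogate variables) and 1 (voom without). At an unadjusted p of at most 0.05, voom gave 1 (with) and 2 (without) of 12, beside 13.7% and 9.2% of all tested genes. For the counts by edgeR, the shares over all tested genes were 0.0138% (adjusted p), 6.3% (unadjusted p) and 13.6% (no overlap).

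Lnpk, which encodes the endoplasmic reticulum junction protein lunapark and starts 80.1 kb from Evx2 on the side away from the cluster, was at 50.2 ± 4.26 CPM in Postn-/- and 57.8 ± 4.54 CPM in wt (SD, n = 3 each; log2 fold change -0.20 ± 0.11, SE; adjusted p of 0.717). Mtx2, a mitochondrial import gene beyond Hoxd1, was at 16.2 ± 3.88 and 14.7 ± 2.48 CPM, with a log2 fold change of 0.15 ± 0.21. Hoxd3os1, a non-coding RNA opposite Hoxd3, was at 3.27 ± 0.860 and 3.43 ± 0.243 CPM, with a log2 fold change of -0.07 ± 0.25, and 10.7% of its 50-base words also occur in Hoxd3 or Hoxd4, from which unstranded counts could not tell it apart. The genotypes overlapped in each of these 3 genes, which were the tested ones among the 18 further genes within 200 kb of the interval from Evx2 to Hoxd1.

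The other 15 genes of that interval were below the filter. Haglr, a long non-coding RNA that starts beside Hoxd1, had 17 reads in the Postn-/- samples together and 10 in wt, the microRNA gene Mir10b 4 and 2, and the pseudogene Mrpl23-ps1 58 and 59. Gm22975, a small nuclear RNA gene 34.9 kb from the start of Evx2 on the Lnpk side, was singled out after the values were seen. It had 2, 7 and 2 reads in Postn-/- and 0, 1 and 1 reads in wt, too few to pass the filter. The remaining 11 were Gm14427, with 34 and 25 reads in the groups, and Gm13672, Gm28309, Gm14396, Gm28793, Gm28230, Gm14424, Gm14426, Gm14425, 4930445N08Rik and the rRNA gene n-R5s198, none with more than 5 reads in a sample. Without a filter, 43 neighbours within 1 Mb other than Evx2 could be fitted, and 0 had an unadjusted p of at most 0.05, beside 1797 of all 34295 genes in that fit.

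**Figure D3:**
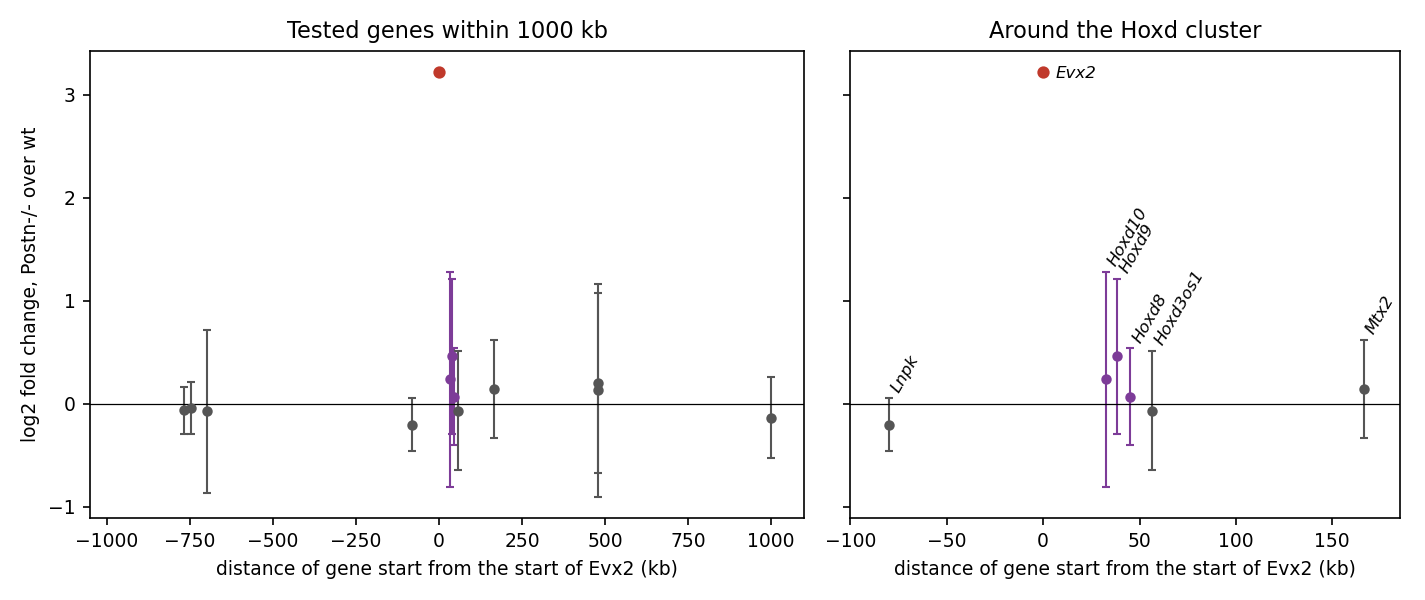
Log2 fold change, Postn-/- over wt, with a 95% interval for the tested genes that start within 1000 kb of Evx2 (left) and around the cluster (right), against the distance of the gene start from the start of Evx2 in kb; Evx2 is red, Hoxd genes are purple and other genes grey. The intervals of the 12 neighbours include 0, and Evx2, chosen by its value in these samples, is drawn at 3.22 without an interval.

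The genes whose levels followed Evx2 most closely over the 6 samples, on log2 CPM, were Trim75 (Pearson's r of 0.994), Scrib (0.994), Parg (0.993), Vil1 (0.991) and Adm (0.991). None lies on chromosome 2. Trim75 (1.18 to 1.38 CPM in Postn-/- and 0.461 to 0.679 CPM in wt) lay near the filter of 1 CPM. So did Vil1 (1.00 to 1.14 and 0.461 to 0.671 CPM). Like Evx2, both passed the filter only through Postn-/- samples. Scrib encodes a cell polarity scaffold, Parg an enzyme that degrades poly(ADP-ribose), Vil1 the actin-binding protein villin and Adm the peptide hormone adrenomedullin. Since Evx2 was selected on its difference between the genotypes, genes of this kind differ in the same way, and in all 5 the lowest Postn-/- sample exceeded the highest wt sample, with log2 fold changes of 0.45 (Adm) to 1.13 (Trim75). The neighbours of Evx2 did not rank among them, with r of 0.36 for Hoxd9, 0.09 for Hoxd10, -0.07 for Hoxd8 and -0.30 for Hoxd3os1. These values describe the same 6 libraries for every gene, and they carry no test.

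The genes closest to Hoxd8, the Hoxd gene of the highest level, were Col8a1 (r of 0.997), Lpar1 (0.992), Dlg4 (0.991), Gm15410 (0.991) and Tpst1 (0.990). Col8a1, a short-chain collagen, measured 30.4, 16.4 and 22.3 CPM in Postn-/- and 44.4, 8.05 and 17.3 CPM in wt, with its maximum in wt replicate 1 and its minimum in wt replicate 2, like Hoxd8. All 5 overlapped between the genotypes. Hoxd10 had an r of 0.84 with Hoxd8 and Hoxd9 an r of 0.60.

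**Figure D4:**
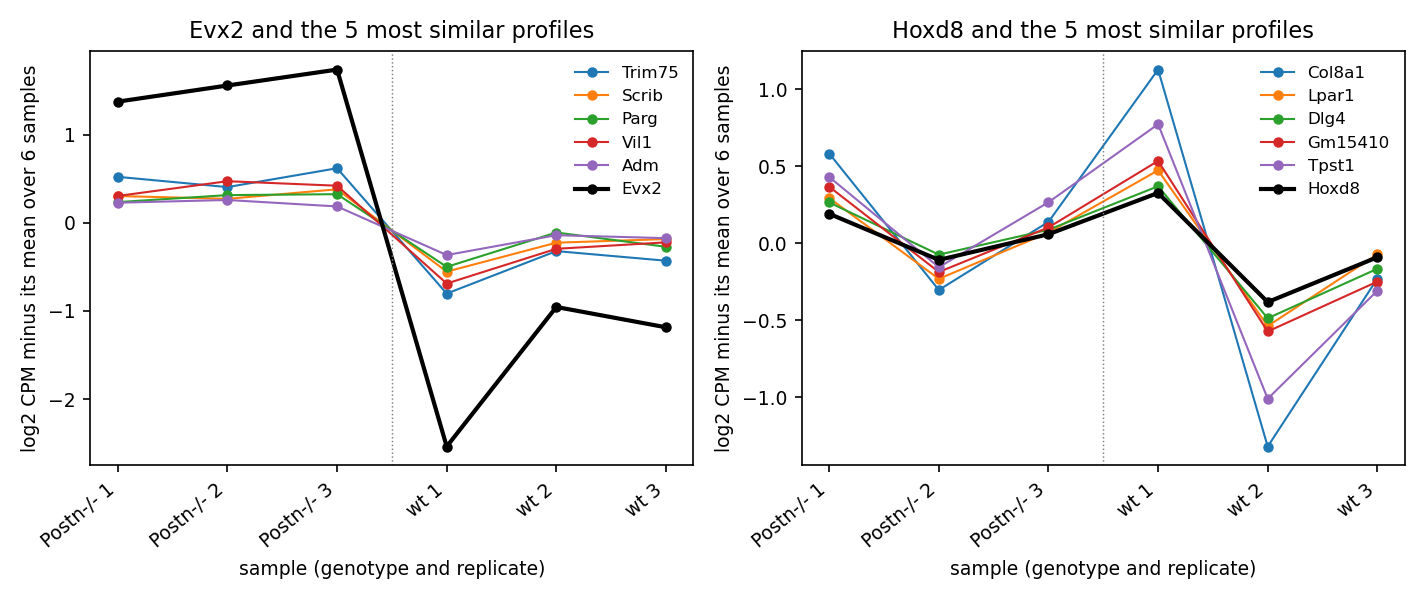
Log2 CPM minus its mean over 6 samples for Evx2 (left) and Hoxd8 (right), in black, and the 5 genes with the highest Pearson's r to each, in colour, by genotype and replicate. The Evx2 group is above its mean in the 3 Postn-/- samples and below it in the 3 wt samples, and the Hoxd8 group is highest in wt replicate 1 and lowest in wt replicate 2.

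Genes that regulate Hox clusters, work with Hox proteins or pattern the limb were listed, 69 in all, of which 59 were tested. By edgeR's quasi-likelihood F-test, adjusted p values of at most 0.05 were found for 0 of the 59 (lowest 0.717), while 2 had an unadjusted p of at most 0.05, beside 0.0138% and 6.3% of all tested genes. With voom, 5 of the 59 were past an unadjusted p of 0.05 without surrogate variables and 10 with them. The shares over all tested genes were 9.2% and 13.7%. After adjustment, voom called 0 of the 59 in either form, beside 1 (without) and 4 (with) of all 14533 tested genes. In 7 of the 59 the genotypes did not overlap, against 13.6% of all tested genes.

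Among the cofactors that bind DNA with Hox proteins, all 9 listed genes were tested, with a median log2 fold change of 0.01. Pknox2 was at 16.3, 14.2 and 14.2 CPM in Postn-/- and 22.0, 20.9 and 16.9 CPM in wt, without overlap (log2 fold change -0.42 ± 0.15, SE; unadjusted p of 0.0218; adjusted p of 0.717). Meis3 did not overlap either, in the other direction, with 5.21 to 8.12 CPM in Postn-/- and 4.50 to 5.08 CPM in wt (log2 fold change 0.44 ± 0.22, SE; unadjusted p of 0.0774; adjusted p of 0.717). Meis1 was at 62.8 CPM in Postn-/- and 61.5 CPM in wt on average.

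The 16 Polycomb genes, which keep Hox genes silent, had a median of 0.08 and none past an unadjusted p of 0.05. The smallest p values were those of Phc2 (0.35 ± 0.16), Cbx8 (0.52 ± 0.25) and Ring1 (0.53 ± 0.27), and Ezh2, the histone H3K27 methyltransferase, was at -0.32 ± 0.22. The 9 trithorax and H3K27 demethylase genes, which counter Polycomb, had a median of -0.07 and none past that p, with Ash2l at 0.26 ± 0.15, Rbbp5 at -0.18 ± 0.12 and Kmt2a at -0.14 ± 0.13. Of the 8 genes of chromosome architecture, 7 had values below 0, with a median of -0.15, beside 49.2% of all tested genes below 0. None had an unadjusted p of at most 0.05, with the cohesin genes Smc1a at -0.23 ± 0.12 and Smc3 at -0.21 ± 0.11 and the insulator gene Ctcf at -0.27 ± 0.14. Ezh2 and Ctcf overlapped between the genotypes, and Cbx8 did not. In the architecture list, Smc1a, Smc3 and Stag1 did not overlap, 3 of 8 genes beside 13.6% of all tested genes.

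Of the 23 limb patterning genes, 16 were tested, with a median of 0.18. Sall3, a zinc finger gene of the distal limb, was at 3.17, 4.96 and 3.91 CPM in Postn-/- and 2.42, 2.17 and 2.83 CPM in wt, without overlap (log2 fold change 0.70 ± 0.25, SE; unadjusted p of 0.0221; adjusted p of 0.717). Bmp2, a growth factor of limb and cartilage, was at 0.38 ± 0.24, and Gli3, the transcription factor of hedgehog signalling that limits Hoxd expression in the limb, at -0.13 ± 0.10. Shh, the signal that drives the distal Hoxd genes in the limb bud, had 0 reads in Postn-/- and 2 in wt. Per kilobase of exon, the hindlimb genes Pitx1 (mean levels of 1.38 RPKM in Postn-/- and 1.14 RPKM in wt) and Tbx4 (0.85 and 0.817 RPKM), named here after their values were seen, exceeded the forelimb gene Tbx5 (0.233 and 0.186 RPKM).

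Evx1, the paralog of Evx2 at the end of the HoxA cluster, had few reads, with 0, 4 and 1 reads in Postn-/- and 1, 3 and 3 in wt. Hoxa13 next to it had 3, 3 and 2 reads in Postn-/- and 1, 0 and 0 in wt, which did not overlap but were below the filter. Hoxa11 had 50 and 53 reads in the groups. Hoxa10, the only tested gene of this list, was at 71.0 CPM in Postn-/- and 69.2 CPM in wt, with a log2 fold change of 0.04 ± 0.19 and an adjusted p of 0.967.

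**Figure D5:**
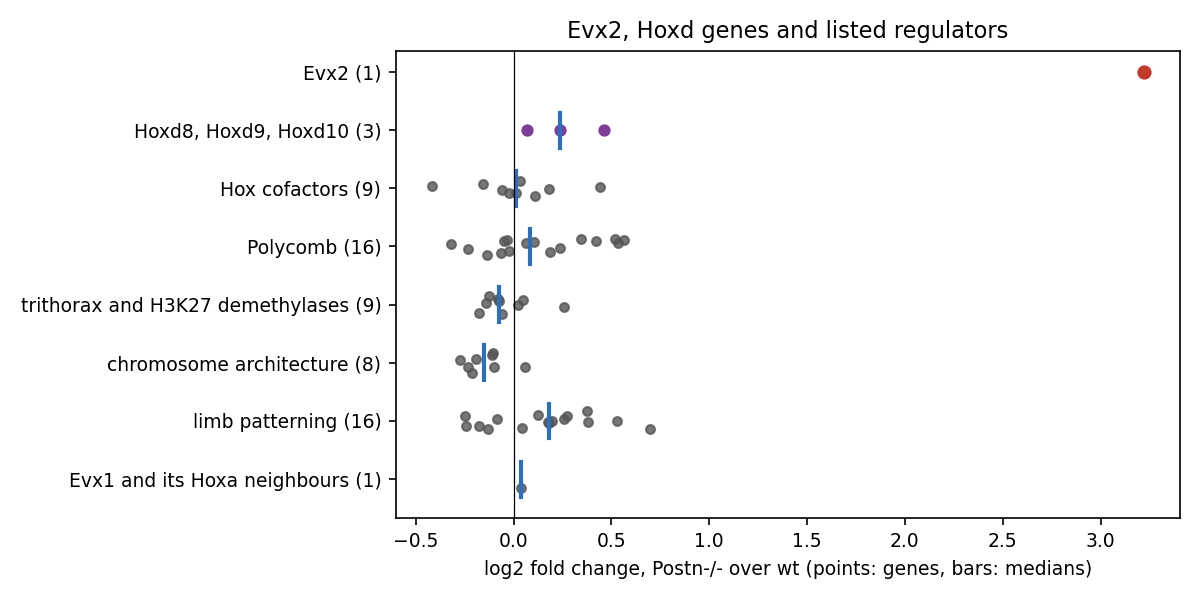
Log2 fold change, Postn-/- over wt, of Evx2, of the 3 tested Hoxd genes and of the tested members of each list, with 1 point per gene, a bar at the median of each list and the number of tested genes in parentheses. Listed genes lie between -0.42 (Pknox2) and 0.70 (Sall3), and Evx2 lies at 3.22.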

How the data were processed

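RNA of chondrocyte cultures from 3 Postn-/- and 3 wt mice was made into cDNA with the SMARTer Ultra Low kit. According to the study's methods and the submitters' processing notes, the authors aligned 50-base reads with STAR 2.0.4b and counted them with Subread featureCounts 1.4.5. The deposited count is a whole number of reads per gene, and the strand setting of counting is not given in the sources used here. The CPM and RPKM columns deposited by the authors beside the counts were not used in any test. The notes name mm9, but 76.0% of the matched genes in the files have the same start and end as in GENCODE M21 (GRCm38) and 99.8% overlap their position there, with the Ensembl release 76 annotation named in the methods. Of 41388 gene IDs, 40340 were matched to GENCODE M21 symbols.

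The filter of the study's methods, more than 1 CPM in 2 or more samples and no rRNA genes (355 removed), gave 14533 tested genes. Counts were scaled by TMM and tested with edgeR 4.0.16 (R 4.3.3; quasi-likelihood F-test; Benjamini-Hochberg adjustment over all tested genes; 0.05 as threshold). The SE is the log2 fold change divided by the square root of F. The common biological coefficient of variation was 0.208. Log2 CPM for profiles used a prior count of 2. Limits of detection of 3 counts cover counting error only. The script was tested on simulated data. Alternatives used DESeq2 1.42.0, limma 3.58.1 with sva 3.50.0 (2 surrogate variables, a number estimated here), other scalings, other filters, a replicate block and omission of each sample.

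Named were the 10 genes, genes starting within 200 kb of them, the 3 listed genes of smallest p per list and the 5 genes of highest Pearson's r to Evx2 and to Hoxd8. A gene that this rule names is not reported here. Members and lists were chosen with earlier results of these data known.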

Additional observations from a re-analysis of the deposited data

How the results depend on the processing

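Over 14 alternatives the log2 fold change of Evx2 ran from 2.79 (without wt replicate 1) to 3.61 (without wt replicate 2), with a within-genotype SD of 0.62. Since Evx2 was chosen by its rise in these same samples, this range is a description and no test of the rise. Evx2 was not tested where each of the 6 samples had to exceed 1 CPM. Over 15 alternatives, 0 Hoxd genes, 0 genes within 1 Mb other than Evx2 and 0 listed genes were called. With edgeR's quasi-likelihood test, 2 genes of all tested were called. This count was 1 with upper-quartile scaling, 11 with the DESeq2 Wald test, 1 with voom without surrogate variables, 4 with surrogate variables, 9 without a filter, and 0 where each of the 6 samples had to exceed 1 CPM, a fit in which 806 genes had an unadjusted p of at most 0.05. It was 1 to 2 when samples were left out in turn. With the replicate number as a block, it was 1, and 1188 genes in place of 916 had an unadjusted p of at most 0.05. Same-numbered samples correlated at 0.08, 0.16 and 0.14 in their deviations from the group means, other pairs at -0.13 to 0.01, so every sample correlated best with its own number. This is a hint from the data, and nothing in the labels pairs the samples. With samples left out in turn, Hoxd10 ran from -0.12 to 0.96, Hoxd9 from 0.21 to 0.82 and Hoxd8 from -0.08 to 0.28, with values below 0 for Hoxd10 and Hoxd8 without wt replicate 2 (-0.12 and -0.082) and for Hoxd8 without Postn-/- replicate 1 (-0.0050). With surrogate variables Hoxd10 was at 0.62 (adjusted p of 0.277). Adjusted p values ranged from 0.277 to 0.990 for Hoxd10, 0.448 to 0.983 for Hoxd9 and 0.622 to 0.998 for Hoxd8. The cause of these shifts was not tested. The 6 untested Hoxd genes had 0 to 10 reads per sample, at which small changes and falls were not detectable, and 3 samples per genotype limit the others.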
